A study of Mus musculus with 4 samples.

Results

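The genes described here are 10 genes that remove or read the small protein SUMO: the proteases Senp1, Senp2, Senp3, Senp5, Senp6 and Senp7, their relative Senp8, the SUMO-targeted ubiquitin ligases Rnf4 and Rnf111, and Pml, the scaffold of a SUMO-rich nuclear body. They were chosen by name and not by a cut on measured values, though with earlier results of these data known. The choice was made from the 18298 genes that any of the 4 samples lists. All 10 had reads in all 4 samples, and all 10 were among the 14123 genes with at least 10 reads in at least 2 samples, the filter for testing. RNA sequencing compared cultured rib chondrocytes, the cells that make cartilage, from 2 mutant samples (Dermo1-Cre;Senp6f/f) and 2 control samples (Senp6f/f). All samples came from E18.5 embryos of the C57BL/6 background and were cultured to passage P1. The sample titles call the controls WT, while the study describes them as Senp6f/f. By the study's description both groups carry the floxed Senp6 allele, and the control lacks Cre. Effects of Cre and of the Senp6 deletion thus cannot be told apart. Dermo1-Cre is expressed from the Twist2 (Dermo1) locus in mesenchymal progenitors, so cells of other origin in a culture keep Senp6. Whether a sample was 1 embryo or a pool is not given in the labels, and nothing there says that the replicates came from separate embryos, so the p-values measure only the spread between these samples.

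Sumoylation joins SUMO to lysines of other proteins through a chain of enzymes that starts with Sae1 and Uba2 and ends with a set of ligases. SUMO2 and SUMO3 can be built into chains, which SENP6 and SENP7 shorten, while SENP1 and SENP2 also mature the SUMO precursors and SENP3 and SENP5 act mainly in the nucleolus. RNF4 and RNF111 recognise SUMO chains and add ubiquitin, and PML, itself heavily sumoylated, collects SUMO-modified proteins in nuclear bodies. The comparison of the genotypes asks how the RNA levels of these proteases and readers differ where Senp6, a protease of SUMO chains, is targeted.

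The loxP sites lie in introns 19 and 23 of Senp6. In the 24-exon transcript of 3495 bases (GENCODE, GRCm38, chromosome 9, from 80066903 to 80144953 on the forward strand) they enclose exons 20 to 23, of 104, 89, 69 and 151 bases. These exons hold 413 bases, or 12.1% of the coding sequence, and touch codons 932 to 1069 of 1139. The numbering of introns in this transcript was taken to be that of the allele. Exon 23 is shown because it carries the codon of the catalytic cysteine. Capitals mark the 9 bases of the motif GANTGNGGN in the reading frame, whose TGT at codon 1056 encodes the cysteine.

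Senp6 exon 23 (chr9:80142245-80142395, GRCm38, forward strand): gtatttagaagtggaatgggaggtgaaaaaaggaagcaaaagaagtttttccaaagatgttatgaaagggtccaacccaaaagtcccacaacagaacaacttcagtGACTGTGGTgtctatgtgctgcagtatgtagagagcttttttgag

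Since 413 leaves a remainder of 2 on division by 3, joining exon 19 to exon 24 shifts the reading frame. In the sequence around that junction, with 30 bases of exon 19 first, capitals mark the stop codon met at codon 938, which ends 20 bases after the junction. Reads across this junction cannot be examined, since the files hold values per gene and not per exon.

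Senp6 junction of exon 19 and exon 24: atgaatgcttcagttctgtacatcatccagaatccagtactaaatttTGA

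**Figure D1:**
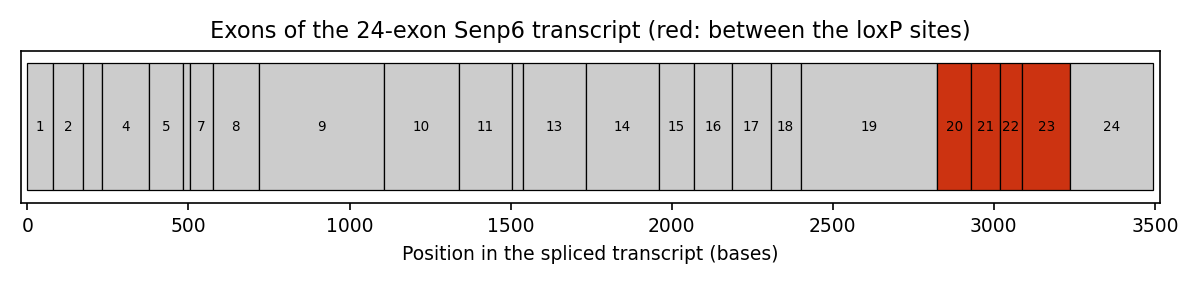
Exons of the 24-exon Senp6 transcript as boxes, to scale along the spliced transcript in bases. The 4 exons between the loxP sites, numbers 20 to 23, are red and hold 413 of 3495 bases, near the end of the coding sequence.

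The 7 Senp genes share the active site that exon 23 carries in Senp6. The motif GANTGNGGN, searched in frame on the coding strand, occurred 1 time in the coding sequence of each of the 7 Senp genes and 1 time in Rnf4, and had no match in Rnf111 and Pml. It is short, and 11.1% of 21489 coding genes held it. The windows of 30 coding bases around it are shown for the Senp genes because they show which members resemble each other at the site, with the motif in capitals.

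Senp1: atgaatgggagtGACTGTGGAatgtttgct
Senp2: ttgaatgggagtGACTGTGGAatgtttact
Senp3: aataatgacagtGACTGTGGTgcctttgta
Senp5: aaaaatgacagtGACTGTGGAgtctttgtg
Senp6: aacaacttcagtGACTGTGGTgtctatgtg
Senp7: gataacagcagtGACTGTGGAgtctatttg
Senp8: gagaacagctatGACTGTGGGatgtacgtg

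Senp1 and Senp2 were identical at 28 of 30 bases, Senp3 and Senp5 at 26, and Senp6 and Senp7 at 24, as were Senp5 and Senp6. Senp8, whose product cleaves NEDD8 rather than SUMO, shared 16 to 22 bases with the others. Pairs of SUMO proteases could share as few, with 16 for Senp2 and Senp6 and 18 for Senp1 and Senp7. The fixed bases of the motif are alike in every window because it was used to find them. The Rnf4 match, at codon 158, lies in the coding sequence of a ligase that has no protease site.

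The libraries held about 21000000 to 31000000 reads on genes. The labels call the cells chondrocytes, and the cartilage collagen gene Col2a1 had an RPKM (the reads scaled by the length of the gene and by the total of the sample) of 609 and 659 in the controls and 334 and 445 in the mutants, while Col1a1, a collagen gene of fibroblasts and osteoblasts, was higher in every sample, at 3311 to 7253. All 11 chondrocyte markers were lower in both mutants than in both controls, beside 22.8% of all tested genes. None of them passed an adjusted p of 0.05 in edgeR (smallest 0.0739). For Acan the gap was small, with an RPKM of 16.8 in control replicate 1 and 16.5 in mutant replicate 1. Muscle markers summed to an RPKM of 93.7 in control replicate 1, 24.8 in control replicate 2 and 139 and 162 in the mutants, and blood markers to at most 0.531. The part of these markers in the values of the members was not tested. Control replicate 2 lay closer to mutant replicate 1 (distance 42.5 on log2 CPM) than to control replicate 1 (distance 47.3). Mutant replicate 2 had 11354 reads on Xist, which is expressed in females, and each other sample at most 5, so that library differed in sex from the rest. In such bulk samples, fewer cells of a type and less RNA per cell cannot be told apart.

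On the RPKM scale the chain reader Rnf4 had the highest level of the family in every sample, followed by Senp3 and Pml, and Senp8 the lowest. Averaged over the 4 samples, the RPKM was 55.6 for Rnf4, 35.5 for Senp3, 22.3 for Pml, 12.2 for Senp6, 10.2 for Rnf111, 10.1 for Senp5, 9.57 for Senp2, 7.48 for Senp1, 4.54 for Senp7 and 1.43 for Senp8. The ranges of neighbours did not overlap between Rnf4 and Senp3, Senp3 and Pml, Senp1 and Senp7, and Senp7 and Senp8. From Pml down to Senp1 each gene's range overlapped that of the next. Ranks 1 to 3 and 8 to 10 were held by the same genes in all 4 samples, and Senp6 took rank 4 in both controls and in mutant replicate 1 and rank 7 in mutant replicate 2.

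**Figure D2:**
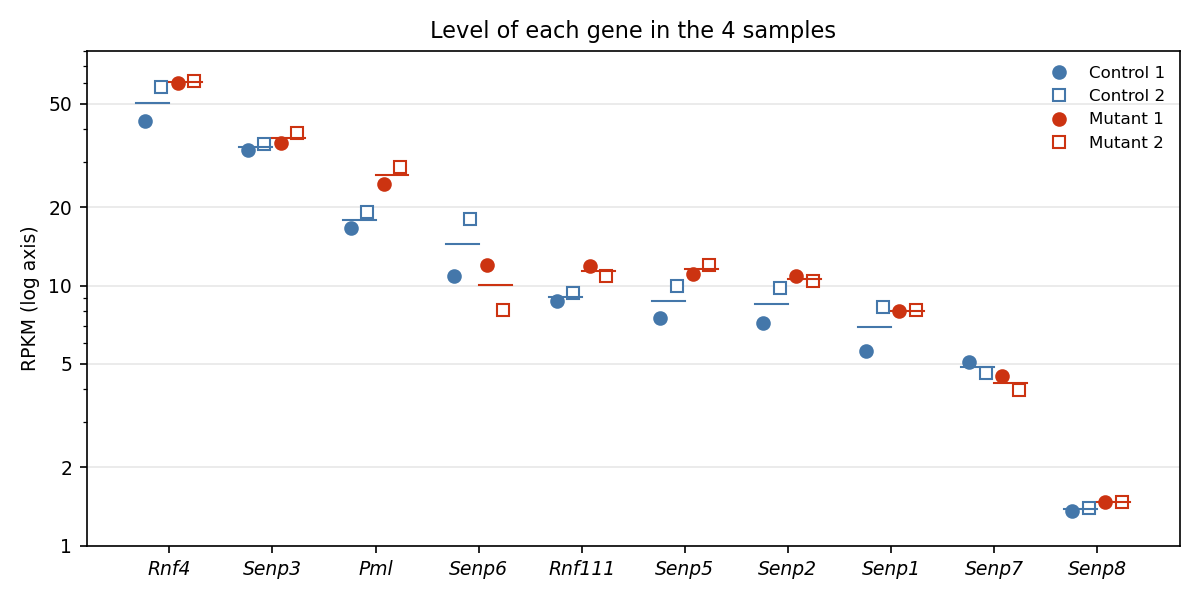
RPKM of the 10 genes, on a log axis, in both controls (blue) and both mutants (red), with a filled circle for replicate 1 and an open square for replicate 2, with a line at each group's mean (n = 2). Senp6 is spread from 8.07 to 18.0 with the groups overlapping, whereas both Pml values of the mutants, 24.7 and 28.5, lie above both control values, 16.6 and 19.2.

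No member passed the edgeR quasi-likelihood test between mutant and control at an adjusted p of 0.05, and neither did any other gene (0% of those tested, with a smallest adjusted p of 0.0512). At an unadjusted p under 0.05 the count was 1 of 10 members, Pml, beside 15.6% of all tested genes, and DESeq2 called Pml alone among the members (adjusted p = 0.0443), beside 4.94% of all tested genes. With replicate number as a block, 0.828% of all genes and no member were called, and without control replicate 2, 5 members and 19.6% of all genes. In reads scaled to the library by TMM factors, 48.1% of all tested genes had groups that did not overlap. Both mutants were above both controls for 7 members, beside 25.4% of all tested genes. They were below both for Senp7, beside 22.8%, and overlapped the controls for Senp1 and Senp6. Among the 7, the gap was small for Senp3 and Senp8. For Senp3 the scaled reads were 85.3 in control replicate 2 and 85.9 in mutant replicate 1. For Senp8 they were 5.47 in control replicate 1 and 5.55 in mutant replicate 2. The error of counting alone was 2.11% and 1.94% of these values for Senp3, and 9.49% and 7.88% for Senp8. Both gaps were smaller than that error. The median log2 fold change was 0.20 over the members and 0.01 over all tested genes, with 8 members above 0 and 2 below. Part of this rested on control replicate 1. Without that sample the log2 fold change was -0.06 for Senp1, 0.05 for Rnf4 and 0.10 for Senp2, while it was 0.26 for Rnf111 and 0.45 for Pml. An exact permutation test on 1 member has 0.33 as its smallest two-sided p with 2 samples against 2.

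**Figure D3:**
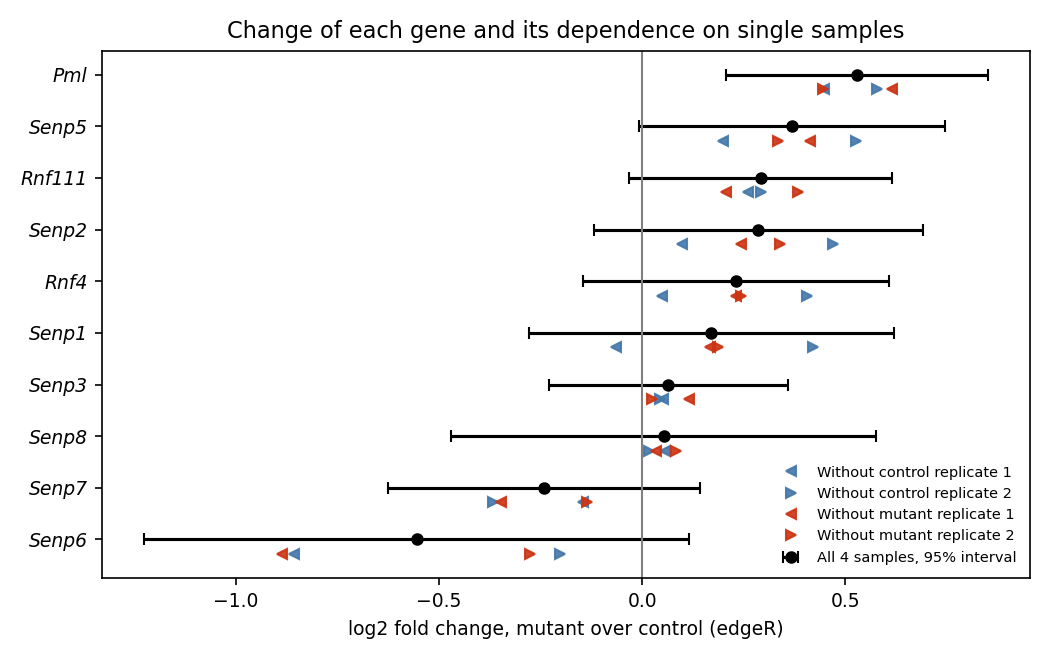
Log2 fold change of each gene, mutant over control, from edgeR. Black points are the estimates from all 4 samples with 95% intervals, and triangles are the estimates without 1 sample. The interval of Pml (0.20 to 0.85) alone lies wholly above 0, and that of Senp6 (-1.23 to 0.11) is the widest.

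Senp6, the targeted gene (Entrez Gene 215351), was not clearly separated between the genotypes at the level of the whole gene. Its reads were 1125 in control replicate 1, 2326 in control replicate 2, 1839 in mutant replicate 1 and 1126 in mutant replicate 2. Per length these are an RPKM of 10.8 and 18.0 in the controls and 12.0 and 8.07 in the mutants. Mutant replicate 2 was the lowest sample and control replicate 2 the highest, and mutant replicate 1 stood above control replicate 1. The log2 fold change was -0.56 (standard error 0.279, 95% interval -1.23 to 0.11, edgeR adjusted p = 0.410), a level in the mutant of 0.680 times the control with an interval of 0.428 to 1.08. On the log2 scale control replicate 2 minus replicate 1 was 0.68, and mutant replicate 2 minus replicate 1 was -0.61, so each pair of replicates was farther apart than the groups. Among all tested genes, 7.04% had a log2 fold change as low or lower.

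The size of the Senp6 difference rested on single samples. Without control replicate 2 the log2 fold change was -0.20, without mutant replicate 2 it was -0.28, and without control replicate 1 or mutant replicate 1 it was -0.86 or -0.89. The label of mutant replicate 1 was thus not checked by its Senp6 level. Reads on the exons outside the loxP sites count toward the gene in a recombined cell too, so the gene count is no measure of the deletion. Twist2, the locus that drives Cre, had an RPKM of 5.15 and 15.1 in the controls and 8.19 and 9.07 in the mutants, with overlapping groups (log2 fold change -0.27, edgeR adjusted p = 0.822).

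The share of the gene covered by reads, the third deposited value, could not show the deletion either. Reads covered 87.8% and 90.2% of the 4938 bases of Senp6 in the controls and 89.0% and 84.7% in the mutants. Mutant replicate 2 was the lowest and mutant replicate 1 lay between the controls. Exons 20 to 23 make up 8.36% of that length, so a transcript without them could be covered to at most 91.6%. All 4 samples, the controls included, lay below this limit, with 485 to 755 bases uncovered in each.

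**Figure D4:**
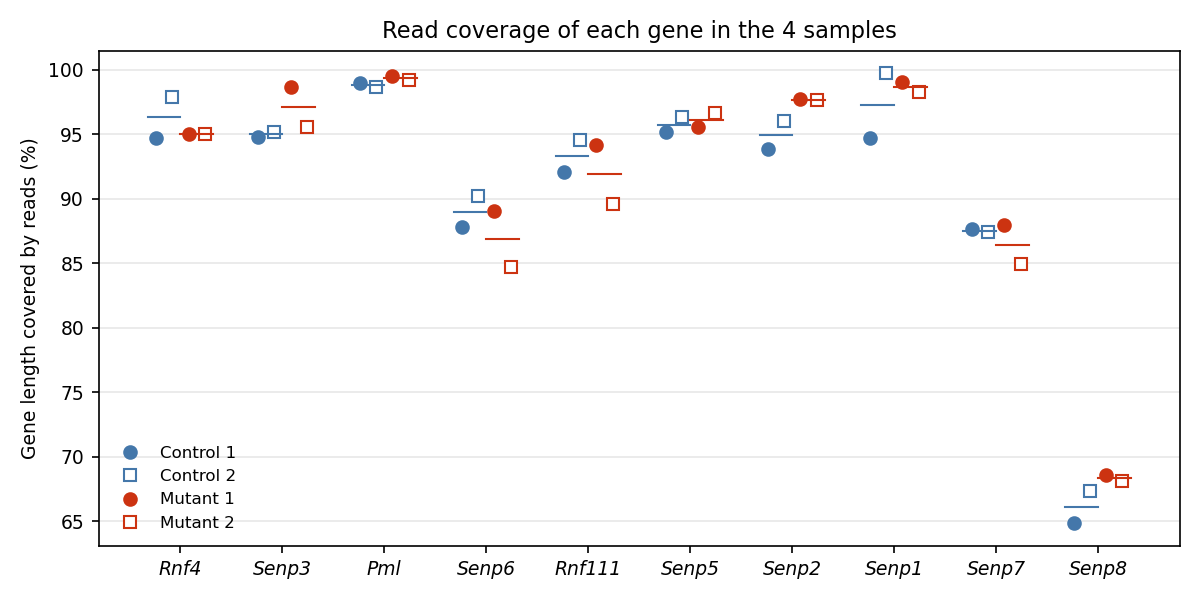
Percent of the length of each gene covered by reads in the 4 samples, with a line at each group's mean (n = 2). Senp6 lies between 84.7% and 90.2%, and Senp8, with 111 to 178 reads, is the least covered at 64.8% to 68.6%.

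Senp7, the other protease that shortens SUMO chains (chromosome 16, 56048338 to 56190012), was read 522 and 589 times in the controls and 677 and 547 times in the mutants. Its RPKM was 5.09 and 4.61 in the controls and 4.47 and 3.97 in the mutants. Both mutants lay below both controls, but by little. The log2 fold change was -0.24 (95% interval -0.63 to 0.14, edgeR adjusted p = 0.538), and it stayed between -0.37 and -0.14 when any 1 sample was left out.

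Senp6 exceeded Senp7 in every sample, with a ratio of RPKM of 2.13 and 3.91 for the control pair and of 2.69 and 2.04 for the mutant pair. These ratios overlapped between the genotypes. Of the summed RPKM of the 7 Senp genes, the chain proteases Senp6 and Senp7 together made up 22.5% and 26.0% in the controls and 19.8% and 14.6% in the mutants. Both mutant shares were below both control shares, and the share of Senp6 alone was 15.3% and 20.7% against 14.5% and 9.78%. No background of other shares was computed. The sum itself was an RPKM of 70.9 and 87.2 in the controls and 83.1 and 82.5 in the mutants, with the mutants between the controls.

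**Figure D5:**
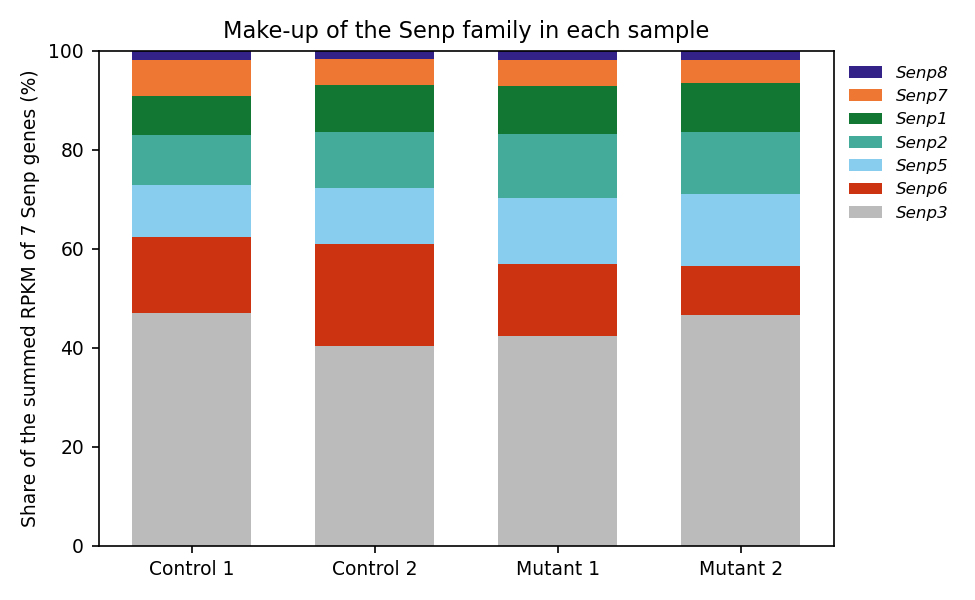
Share of each Senp gene in the summed RPKM of the 7 Senp genes, in percent, for the 4 samples. Senp3 takes 40.3% to 47.0% in every sample, and Senp6 (red) takes 15.3% and 20.7% in the controls and 14.5% and 9.78% in the mutants.

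Senp1 and Senp2, which mature SUMO and release it from single sites, differed more between the controls than between the genotypes. The RPKM of Senp1 (chromosome 15, 98038744 to 98093744) was 5.60 in control replicate 1 and 8.28 in replicate 2, beside 7.97 and 8.07 in the mutants. Control replicate 1 was low and the other 3 samples were alike, so the groups overlapped. Its log2 fold change was 0.17 (95% interval -0.28 to 0.62, edgeR adjusted p = 0.725), it was 0.42 without control replicate 2, and it turned to -0.06 without control replicate 1. In the annotation, 18 bases of Senp1 overlap Pfkm on the other strand, and the files do not say whether counting used the strand.

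Senp2 (chromosome 16, 22009484 to 22049269) had an RPKM of 7.18 and 9.82 in the controls and of 10.9 and 10.4 in the mutants. Control replicate 1 was again the lowest sample, and both mutants lay just above control replicate 2. This gave a log2 fold change of 0.29 (95% interval -0.12 to 0.69, edgeR adjusted p = 0.488), and 0.10 without control replicate 1. The gap between the controls, 0.39 on the log2 scale, was larger than the difference between the genotypes.

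The nucleolar proteases differed in level. Senp3 (chromosome 11, 69673115 to 69682084), which acts on factors of ribosome assembly, was the most abundant Senp gene, with an RPKM of 33.3 and 35.1 in the controls and of 35.2 and 38.5 in the mutants. Its replicates were close, with a gap of 0.02 on the log2 scale between the controls and 0.09 between the mutants. Its log2 fold change was 0.06 (95% interval -0.23 to 0.36, edgeR adjusted p = 0.853).

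Senp5 (chromosome 16, 31959672 to 32003287) had an RPKM of 7.50 and 9.94 in the controls and of 11.1 and 12.0 in the mutants. Both mutants were above both controls. Between the genotypes the log2 fold change was 0.37 (95% interval -0.01 to 0.74, edgeR adjusted p = 0.33), with 0.20 when control replicate 1 was left out and 0.53 when control replicate 2 was. In the annotation, 131 bases of Senp5 overlap Ncbp2 on the other strand. The ratio of Senp3 to Senp5 was 4.45 and 3.53 in the controls and 3.17 and 3.20 in the mutants, lower in both mutants than in either control. Ratios of other gene pairs were not examined as a background.

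Senp8 (chromosome 9, 59734259 to 59750710), the NEDD8 protease, had 111 and 142 reads in the controls and 178 and 161 in the mutants. At these counts the error of counting alone was 7.50% to 9.49% of the value in each sample, the largest of the family. The RPKM was 1.36 and 1.40 in the controls and 1.48 and 1.47 in the mutants, and the log2 fold change was 0.05 with an interval of -0.47 to 0.58 (edgeR adjusted p = 0.933). No difference was detectable at this depth.

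Rnf4 and Rnf111, the ligases that read SUMO chains, were both higher in both mutants than in both controls, and neither passed the test. Rnf4 (chromosome 5, 34336289 to 34355629) had an RPKM of 42.8 and 57.9 in the controls and of 60.2 and 61.3 in the mutants. Control replicate 1 stood apart, and control replicate 2 lay near the mutants. The log2 fold change of 0.23 (95% interval -0.15 to 0.61, edgeR adjusted p = 0.550) dropped to 0.05 when control replicate 1 was left out and reached 0.41 when control replicate 2 was.

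Rnf111 (chromosome 9, 70425424 to 70503725), which also acts on inhibitors of TGF-beta signalling, did not rest on 1 control. Its RPKM was 8.70 and 9.40 in the controls and 11.9 and 10.8 in the mutants, without overlap between the groups. The log2 fold change was 0.29 (95% interval -0.03 to 0.62, edgeR adjusted p = 0.369), and between 0.21 and 0.38 when any 1 sample was left out. Rnf4 exceeded Rnf111 by a ratio of 4.92 to 6.16 in the 4 samples. The ratio of Rnf4 to Senp6 was 3.95 and 3.21 in the controls and 5.01 and 7.59 in the mutants, higher in both mutants than in either control. How often ratios of other gene pairs part in this way was not examined. Of single tested genes, 48.1% had groups that did not overlap.

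Pml (chromosome 9, 58218076 to 58249786), the scaffold of nuclear bodies and a gene known to respond to interferon and to p53, had the largest upward difference of the family. It was read 1878 and 2703 times in the controls and 4115 and 4330 times in the mutants. The RPKM was 16.6 and 19.2 in the controls and 24.7 and 28.5 in the mutants, so that the lowest mutant stood above the highest control. The gap between the groups exceeded the gap within each, which was 0.15 on the log2 scale for the controls and 0.17 for the mutants. The log2 fold change was 0.53 (standard error 0.134, 95% interval 0.20 to 0.85), or 1.44-fold with an interval of 1.15 to 1.80. The unadjusted p was 0.00653 and the edgeR adjusted p 0.143, above the threshold, and 11.6% of all tested genes had a log2 fold change as high or higher. Without any 1 sample the log2 fold change stayed between 0.45 and 0.62.

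Lists of known p53 and interferon target genes were set beside Pml. Of 14 known p53 target genes, 13 were higher in both mutants than in both controls, beside 25.4% of all tested genes. The median log2 fold change of the 14 was 0.73, and none passed an adjusted p of 0.05 in edgeR. Cdkn1a, which arrests the cell cycle, had an RPKM of 57.7 and 84.6 in the controls and of 122 and 176 in the mutants (log2 fold change 1.02, adjusted p = 0.115), and Mdm2, the ubiquitin ligase of p53, one of 15.5 and 22.1 against 30.1 and 39.6 (0.85, adjusted p = 0.125). The others with a log2 fold change of at least 0.5 were Pmaip1 (3.53), Perp (2.01), Eda2r (0.95), Ccng1 (0.88), Zmat3 (0.78), Aen (0.67), Phlda3 (0.53) and Trp53inp1 (0.53), with edgeR adjusted p-values of 0.0739 to 0.240. The 2 largest changes rest on few control reads. Pmaip1 was read 10 and 25 times in the controls and 251 and 262 times in the mutants. Perp was read 16 and 103 times against 176 and 399. Bbc3 was the target that overlapped (log2 fold change -0.14). Of 20 interferon genes, 2 (Usp18 and Ddx58) were higher in both mutants, none was lower in both, and 18 overlapped. Usp18, which removes the protein modifier ISG15, had an RPKM of 5.67 and 3.85 in the controls and of 6.37 and 13.5 in the mutants (log2 fold change 1.01, edgeR adjusted p = 0.268). Their summed RPKM was 228 and 149 in the controls and 204 and 337 in the mutants, highest in mutant replicate 2. The part of either list in the Pml difference was not tested.

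Partners of PML in the nuclear body were divided between the directions much as all tested genes were, of which 25.4% were higher in both mutants and 22.8% lower in both. Of 10 listed genes, 3 (Hipk2, Trp53inp1 and Morc3) were higher in both mutants, 2 (Sp100 and Daxx) were lower in both, and 5 overlapped, with a median log2 fold change of 0.04. Sp100, another protein of the bodies, had an RPKM of 3.86 and 3.07 in the controls and of 2.23 and 2.53 in the mutants (log2 fold change -0.59, edgeR adjusted p = 0.310). Trp53inp1, a p53 target that sits in the bodies, had one of 8.57 and 7.74 against 11.4 and 12.9 (log2 fold change 0.53, edgeR adjusted p = 0.159).

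The enzymes and modifiers upstream of the proteases were set beside them in the same way. Of 18 genes of the sumoylation system, 9 were higher in both mutants, 2 (Pias3 and Pias4) were lower in both and 7 overlapped. These counts, and those of the lists below, stand beside 25.4% of all tested genes higher in both mutants and 22.8% lower in both. Some gaps were small: for Ranbp2 the highest control had an RPKM of 15.9 and the lowest mutant one of 16.4. None of the 18 passed the edgeR test, with a smallest adjusted p of 0.271. The median log2 fold change was 0.09. Sumo2, the main chain-forming modifier, had an RPKM of 167 and 209 in the controls and of 227 and 235 in the mutants (log2 fold change 0.26, adjusted p = 0.445), and Sumo3 one of 49.8 and 52.1 against 59.1 and 74.6 (0.35, adjusted p = 0.320).

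Trim28, a co-repressor with SUMO ligase activity, overlapped between the genotypes, with an RPKM of 129 and 144 in the controls and of 139 and 134 in the mutants (log2 fold change -0.04, edgeR adjusted p = 0.910). The 3 proteases of other families overlapped too, except Desi1, which had an RPKM of 13.2 and 19.4 in the controls and of 22.1 and 22.4 in the mutants (log2 fold change 0.42, edgeR adjusted p = 0.353).

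A further list, drawn up as SUMO readers, held 9 tested genes, and whether each product binds SUMO was not examined. Of these, 5 (Uimc1, Simc1, Ankrd32, Fam178a and Rnf169) were higher in both mutants, 2 (Daxx and Usp11) were lower in both and 2 overlapped. Ankrd32, now named Slf1, which recruits a DNA repair complex, had an RPKM of 1.11 and 1.68 in the controls and of 2.18 and 2.04 in the mutants (log2 fold change 0.56, edgeR adjusted p = 0.365). For the NEDD8 pathway around Senp8, 3 of 10 genes (Ube2m, Ube2f and Cul3) were higher in both mutants and 7 overlapped. Around Senp3, 1 of 9 genes of ribosome assembly (Nol9) was higher in both, 2 (Pelp1 and Wdr18) were lower and 6 overlapped.

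Around Rnf111, 3 of 9 genes of TGF-beta signalling, among them Smad7 and Smad2, were higher in both mutants and 6 overlapped. Smad7, an inhibitor of the pathway, had an RPKM of 4.55 and 4.83 in the controls and of 6.91 and 7.21 in the mutants (log2 fold change 0.55, edgeR adjusted p = 0.135).

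The genes whose 4 values most resembled those of Senp6, by Euclidean distance of centred log2 values over the 4 samples, were Gramd2 (0.168), Ccdc78 (0.179) and Map6d1 (0.182). All 3 were read between 12 and 68 times a sample, so their likeness rests on few reads.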

How the data were processed

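The authors deposited, for each of the 4 samples, raw counts of reads per gene, the RPKM, and the coverage, in percent of a gene's length. The RPKM was recomputed from the deposited counts, lengths and totals and matched. The submitters' processing notes name SAMtools and the build mm9; the aligner, the counter, the annotation and the use of strand are not given in the sources used here. The labels' protocol names both Ion Proton and Illumina. Genes absent from a sample's list were given a count of 0.

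Counts of all 4 samples were fitted by edgeR 4.0.16 in R 4.3.3 (glmQLFit, robust, TMM factors of 0.966 to 1.03). The filter kept 14123 genes, those reaching 10 counts in 2 or more samples. Quasi-likelihood p-values were adjusted by Benjamini-Hochberg over the kept genes, with a threshold of 0.05. Alternatives were RLE size factors, DESeq2 1.42.0, other filters, limma 3.58.1 on log2(RPKM + 1) and log2(RPKM + 0.1), a replicate block and leaving out each sample. Replicate pairs differed by more than counting noise (chi-square over degrees of freedom of 51.6 and 24.2), so neither pair was treated as repeat files of 1 library. This does not show that the samples are independent cultures. The fits were also run on simulated counts with 200 changed genes and the same spread for every gene in both groups. In the data the spread between replicates (biological coefficient of variation) was 0.208 for the controls and 0.121 for the mutants. The simulation therefore checks the code and not how the fits behave on these samples. Loci, exons and coding sequences come from GENCODE M21 (GRCm38), another build than mm9, and no coordinate bears on a count. Protein sequences were not used here.

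The members and gene lists were chosen with earlier results of these data known. The genes named are all members, listed genes past the threshold or, as there were none, listed genes without overlap between the groups and with an absolute log2 fold change of at least 0.5, with Sumo2, Sumo3, Trim28, Twist2 and the 3 genes nearest to Senp6. Other genes named beside counts of 5 or fewer, and the marker genes named, were picked after their values were seen. Some genes that this rule names are not reported here.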

Additional observations from a re-analysis of the deposited data

How the results depend on the processing

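The members' log2 fold changes were refitted under 11 alternatives each, which gave 110 values: 103 kept their direction and their side of the threshold, 6 kept their direction and passed the threshold, and 1 reversed (Senp1, which ranged from -0.064 without control replicate 1 to 0.42 without control replicate 2). Senp6 ranged from -0.89 to -0.20 when a sample was left out and passed the threshold under no alternative, with a smallest adjusted p of 0.134. The count of members past the threshold was 0 with all samples, 1 (Pml) with DESeq2, and 0 to 5 without 1 sample. The 5, without control replicate 2, were Senp1 (adjusted p = 0.0424), Senp2 (0.0306), Senp5 (0.0149), Rnf4 (0.0464) and Pml (0.0128), where 19.6% of all tested genes passed; the lone control is there assumed to vary like the mutants. Over all genes, 0 were called higher and 0 lower by edgeR, 434 and 263 by DESeq2, 225 and 61 without a filter, and from 68 to 1296 higher and 37 to 1444 lower without 1 sample, the highest without control replicate 2. The causes of these differences were not tested.

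With the replicate block, 84 genes were higher and 33 lower, no member passed, and Senp6 had a log2 fold change of -0.55 (adjusted p = 0.518). The differences between replicates correlated at -0.06 between the genotypes across genes, which are not independent. This cannot show whether replicate numbers pair the samples, since other differences within a pair, such as sex in the mutants, enter it too. Depth limits Senp8 most, and with 2 samples a group the intervals of 9 of 10 members include 0.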

Other observations

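Markers of other cell types were set beside the family as a description of the cultures. Of 8 fibroblast markers, 5 were lower in both mutants, Thy1 was higher in both (RPKM 219 and 341 in the controls, 609 and 832 in the mutants) and 2 overlapped. Of 5 tested osteoblast markers, 4 were lower in both mutants, among them Alpl, an enzyme of mineralisation (RPKM 90.1 and 45.7 against 11.6 and 22.4), and Spp1 was higher in both. Of 10 muscle markers, 7 were higher in both mutants and 3 overlapped, among the former Myod1, a regulator of muscle fate (RPKM 1.80 and 0.537 against 4.30 and 9.30). All 5 tested macrophage markers were lower in both mutants, and of 4 endothelial markers 1 was higher, 1 lower and 2 overlapped. None of these genes passed an adjusted p of 0.05 in edgeR, and their part in the levels of the SUMO genes was not tested.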
